A study of Mus musculus with 6 samples.

Results

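The NRF2 antioxidant genes are 10 genes of the oxidative stress response, Hmox1, Nqo1, Gclm, Gclc, Txnrd1, Srxn1, Slc7a11, Gstm1, Gpx1 and Cat, and they were followed here in the brains of 6-day-old mice with or without an active human SRY transgene. Every probe of the brain table whose symbol was one of these names was taken, which gave 14 of 25697 probes and 10 of 18138 symbols. The rule uses gene names and no measured value, but the list of names was drawn up with earlier results of these data known. The microarray was the Illumina MouseRef-8 BeadChip, on which a probe is an oligonucleotide carried by many beads, and each of 6 arrays held labelled RNA from the whole brain of male FVB mice (FVB/N in the study's methods) at postnatal day 6 (P6). There were 3 arrays per group.

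All mice of both groups carried Signalox-hSRY, a transgene present as a single copy at the H11 locus of chromosome 11 and driven by the ubiquitous CAG promoter, and all came from 1 transgenic line. In hSRY-OFF mice the transgene had not been recombined, so that the red fluorescent protein DsRed2 was made and human SRY was silent. In hSRY-ON mice Cre recombinase from oocytes of Ddx4-Cre mothers had recombined the transgene in the one-cell embryo, and human SRY, the testis-determining transcription factor of the Y chromosome, was made together with EGFP. The hSRY-ON mice used for the arrays did not themselves carry Ddx4-Cre. The mothers and litters of the hSRY-OFF mice on the arrays are not given in the sources used here, so effects of the mother's genotype or of litter cannot be told apart from those of the transgene. The study reports that hSRY-ON pups suckled little and grew more slowly than controls, and that some died before P6. Effects of poor feeding, slower growth or survival therefore cannot be told apart from direct effects of human SRY either. The transgene itself was not analysed here, so the arrays gave no check of the group labels from its level.

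NRF2, encoded by Nfe2l2, is a transcription factor that is made and destroyed continuously. KEAP1 holds it in the cytoplasm and hands it to a CUL3 ubiquitin ligase, and oxidants or electrophiles that modify KEAP1 let NRF2 accumulate, enter the nucleus, pair with a small MAF protein and bind antioxidant response elements near its target genes. BACH1 competes for the same elements. In brain the pathway is best known in astrocytes, which supply neurons with precursors of glutathione. Some of the members are classic targets of NRF2 (Hmox1, Nqo1, Gclm, Gclc, Txnrd1, Srxn1, Slc7a11 and Gstm1), while Gpx1 and Cat also serve in every cell as enzymes that remove peroxides.

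The core letters of the antioxidant response element, TGACNNNGC, were searched on both strands of promoter windows from RefSeq (build GRCm38.p6), each of 300 bases with 250 bases before and 50 after a gene's start. Hmox1 and Gclc had no window in that table. Of the 8 members that had one, Gclm, Srxn1 and Txnrd1 held the letters (Txnrd1 in 1 of its 3 windows), and none of the windows of Nqo1, Slc7a11, Gstm1, Gpx1 or Cat did. Over all 27025 genes with a window, 14% held the letters, and of 110 genes of the related pathways described further on 20.9% did. The stretches of 30 bases around the matches in members are shown because they hold the letters of the element that NRF2 binds. That of Gstm5, a mu-class glutathione transferase like Gstm1, was added as an example. Whether windows of the other mu-class genes outside the members hold the letters is not given here. They are printed 5′ to 3′ with the match in capitals. Gclm is read on the minus strand at chr3:122245412-122245441, with the match at bases -134 to -126 counted from 0 at the start. Txnrd1 is read on the minus strand at chr10:82859103-82859132, with the match at bases -92 to -84. Srxn1 is read on the minus strand at chr2:152105541-152105570, with the match at bases 28 to 36, inside the transcribed part. Gstm5 is read on the plus strand at chr3:107895802-107895831, with the match at bases -42 to -34.
Gclm: tcgtgagagtTGACGGTGCgcccgggagcg
Txnrd1: cgtgtcagaaTGACAAAGCaaaaatccagt
Srxn1: tgtctcactcTGACCTAGCtgcccactgcc
Gstm5: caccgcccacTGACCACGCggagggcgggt
A match describes these letters only, and an absent match says no more than that they are not in the window.

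In hSRY-ON brain the NRF2 antioxidant genes did not move together. Gstm1, which joins glutathione to electrophiles, rose by 47.7% at 1 of its 2 probes and was the single member called. At 2 of the 3 Srxn1 probes and at Slc7a11 all hSRY-ON brains lay below all hSRY-OFF brains, and at Nqo1 above them, without passing the test. Gclm, Gpx1 and Cat had log2 fold changes of -0.10, 0.05 and -0.01 with 95% intervals that included 0. Hmox1 varied more between mice of one group than between the groups. In all, 11 probes of 8 members were detected well enough to be tested, each on all 6 arrays. The other 3 probes (all of Gclc and Txnrd1, and the second of Nqo1) were detected on none.

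The test was limma's moderated test on quantile-normalized, background-corrected log2 signals over 14215 detected probes, and a probe was called at a Benjamini-Hochberg adjusted p under 0.05. All fold changes are log2 differences, hSRY-ON minus hSRY-OFF. Over all tested probes 2.17% were called, 0.844% higher and 1.32% lower in hSRY-ON. Of the 11 member probes 1 was called, higher. An unadjusted p under 0.05 was reached by 4 member probes (2 higher and 2 lower), which is 36.4% of them, and by 20.9% of all tested probes. The members' median log2 fold change was -0.10, with 4 probes above 0 and 7 below and a range of -0.34 to 0.56, beside a median of 0.00 over all tested probes. The 3 hSRY-ON values lay wholly apart from the 3 hSRY-OFF values at 5 member probes (2 higher and 3 lower), which is 45.5% of them, while 27.7% of all tested probes showed such separation (13.5% higher and 14.2% lower). With 11 probes, several of them from the same gene, these shares are a description of the list only.

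**Figure D1:**
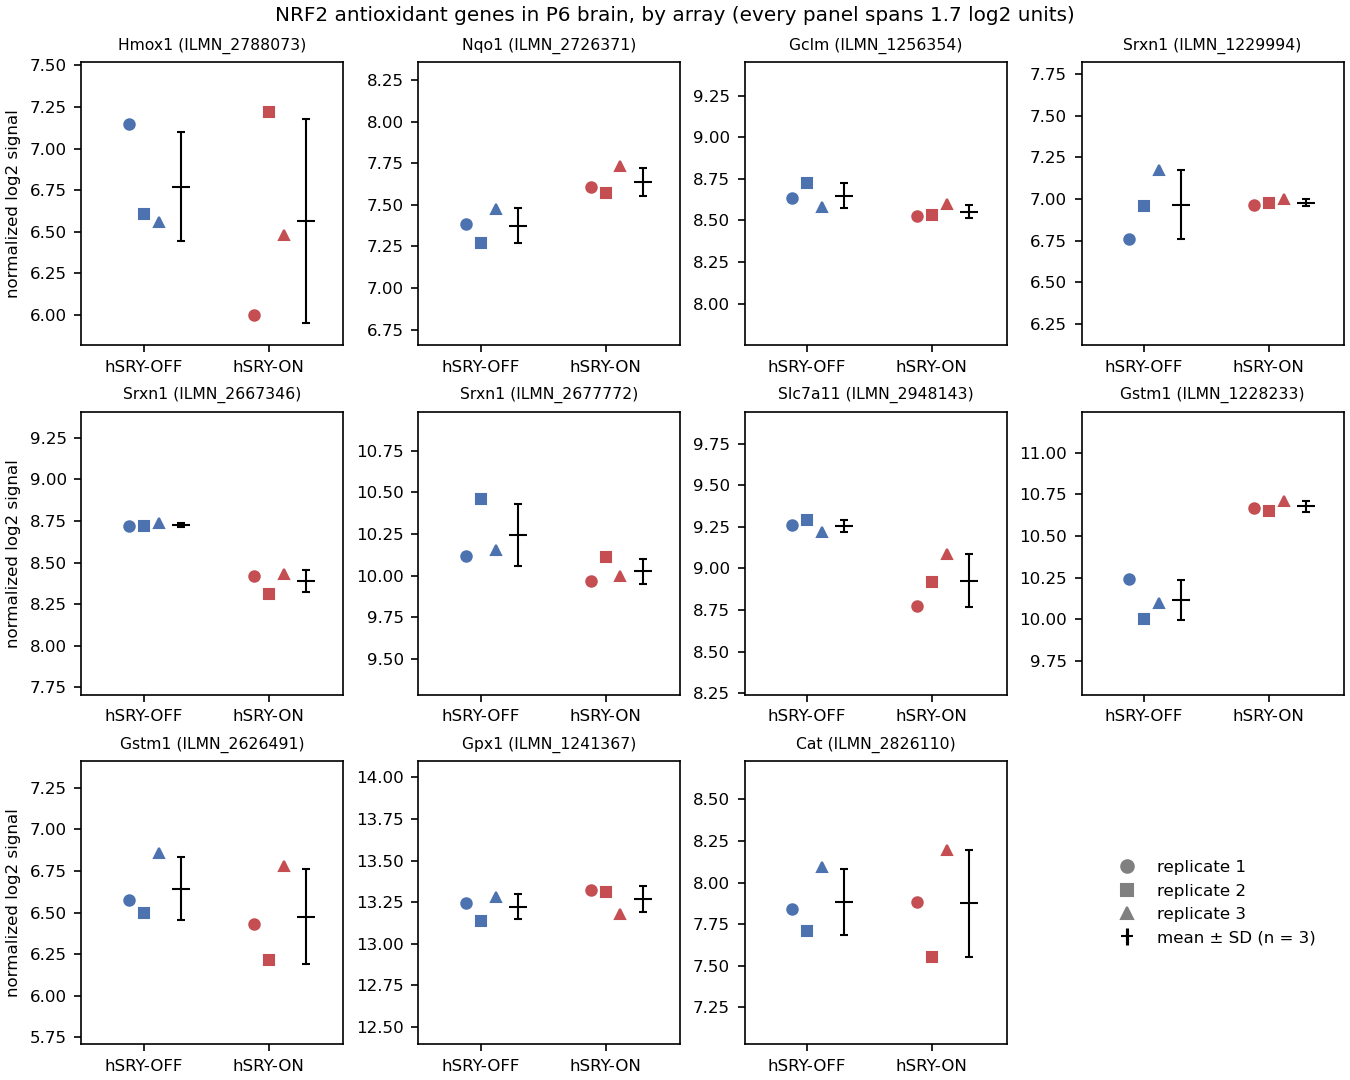
Normalized log2 signal (vertical axis) of each tested probe of the NRF2 antioxidant genes on each array, with hSRY-OFF in blue, hSRY-ON in red, a marker shape per replicate and the mean ± SD (n = 3) in black. Every panel spans the same number of log2 units. Gstm1 at probe ILMN_1228233 is higher on all 3 hSRY-ON arrays, between 10.65 and 10.71 against 10.0045 to 10.24, while the points of Cat and Gpx1 mix.

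Gstm1 is a cytosolic glutathione transferase of the mu class. At probe ILMN_1228233 its log2 signal was 10.24, 10.0045 and 10.10 in the hSRY-OFF brains and 10.67, 10.65 and 10.71 in the hSRY-ON brains. Each hSRY-ON brain was above each hSRY-OFF brain, and the hSRY-ON brains lay within 0.06 of one another. The means were 10.12 ± 0.12 and 10.68 ± 0.03 (SD, n = 3 each), a log2 fold change of 0.56 ± 0.09 (SE) with a 95% interval of 0.35 to 0.77 and a limma adjusted p of 0.0348, rank 141 by p among the 14215 probes. The separation was also present in the deposited intensities before any correction, which were 1543, 1172 and 1206 in hSRY-OFF and 1814, 1672 and 1767 in hSRY-ON. The call depended on every array: without any one of them the log2 fold change stayed between 0.51 and 0.63, but the adjusted p rose to 0.0922, 0.117 and 0.109 without hSRY-OFF replicates 1, 2 and 3, and to 0.0979, 0.0782 and 0.0513 without hSRY-ON replicates 1, 2 and 3. Few calls of any gene outlasted this: the 308 calls over all probes became 417 without hSRY-ON replicate 3 and at most 1 without any other array. With median scaling in place of quantile normalization the adjusted p was 0.0504.

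The second Gstm1 probe, ILMN_2626491, did not follow the first, and it was dim beside an array background of 157.4 to 170.3. Its mean deposited intensities were 254 in hSRY-OFF and 238 in hSRY-ON brains, against 1307 and 1751 at the first probe. Its log2 signal was 6.57, 6.50 and 6.86 in hSRY-OFF and 6.43, 6.21 and 6.78 in hSRY-ON brains, so the groups overlapped. This was a log2 fold change of -0.17 ± 0.16 (SE), with a 95% interval of -0.56 to 0.22 and a limma adjusted p of 0.605. Leaving out single arrays moved it between -0.04 (without hSRY-ON replicate 2) and -0.32 (without hSRY-ON replicate 3), and it was -0.06 without hSRY-OFF replicate 3. The difference between the fold changes of the 2 probes was 0.73, at an exact two-sided permutation p of 0.1, the lowest that 3 arrays against 3 allow (0.2 after adjustment over the 4 probe pairs of members with several tested probes). Some mu-class transferases are closely similar in sequence, and the probe sequences were not analysed here, so which family members each probe reads is uncertain.

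Srxn1, sulfiredoxin, repairs over-oxidized peroxiredoxins and had 3 tested probes. At ILMN_2667346 the log2 signal was 8.72, 8.72 and 8.74 in hSRY-OFF and 8.42, 8.31 and 8.43 in hSRY-ON brains. The hSRY-OFF values were nearly the same and all 3 hSRY-ON values lay below them. The log2 fold change was -0.34 ± 0.08 (SE), with a 95% interval of -0.52 to -0.16, a difference of -20.9% that missed the threshold with a limma adjusted p of 0.0697.
At ILMN_2677772 the log2 signal was 10.12, 10.46 and 10.15 in hSRY-OFF and 9.97, 10.11 and 9.9965 in hSRY-ON brains. The groups were just apart, by 0.01 between the highest hSRY-ON and the lowest hSRY-OFF brain. That gave a log2 fold change of -0.22 ± 0.11 (SE), with a 95% interval of -0.48 to 0.05 and a limma adjusted p of 0.313. It was -0.11 without hSRY-OFF replicate 2, the highest value.
The third probe, ILMN_1229994, read 6.76, 6.96 and 7.18 in hSRY-OFF and 6.96, 6.98 and 6.9992 in hSRY-ON brains. This was the dimmest Srxn1 probe, with mean deposited intensities of 280 in hSRY-OFF and 273 in hSRY-ON brains beside a background of 157.4 to 170.3. All hSRY-ON values fell inside the hSRY-OFF range, and the log2 fold change was 0.01 ± 0.11 (SE), with a 95% interval of -0.25 to 0.28 and a limma adjusted p of 0.964. Between this probe and the other two, the fold changes differed by 0.35 (exact permutation p = 0.1) and 0.23 (exact permutation p = 0.4), and between ILMN_2667346 and ILMN_2677772 by -0.12 (exact permutation p = 0.5).

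Slc7a11, or xCT, exchanges glutamate for the cystine from which glutathione is made. At ILMN_2948143 the log2 signal was 9.26, 9.29 and 9.22 in hSRY-OFF and 8.77, 8.92 and 9.09 in hSRY-ON brains. All hSRY-ON values were below all hSRY-OFF values, and they were spread more widely (SD 0.16 against 0.03, n = 3 each). The log2 fold change was -0.33 ± 0.10 (SE), with a 95% interval of -0.56 to -0.10 and a limma adjusted p of 0.125, and it was -0.25 without hSRY-ON replicate 1, the lowest value.

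Glutamate-cysteine ligase makes the first step of glutathione synthesis, with Gclc as its catalytic and Gclm as its modifier subunit. At Gclm probe ILMN_1256354 the log2 signal was 8.64, 8.73 and 8.58 in hSRY-OFF and 8.53, 8.53 and 8.60 in hSRY-ON brains. The highest hSRY-ON brain lay inside the hSRY-OFF range. Between the groups the log2 fold change was -0.10 ± 0.08 (SE), with a 95% interval of -0.28 to 0.09 and a limma adjusted p of 0.535. Gclc probe ILMN_2608016 was not above background on any array, with intensities of 166 to 181 and detection p-values of 0.115 to 0.39. The intensity that corresponds to background on these arrays was 157.4 to 170.3. No fold change is given for it.

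Nqo1 reduces quinones. At ILMN_2726371 the log2 signal was 7.39, 7.27 and 7.47 in hSRY-OFF and 7.61, 7.57 and 7.74 in hSRY-ON brains. All hSRY-ON brains were above all hSRY-OFF brains, by 0.10 between the nearest brains. Nqo1 thus had a log2 fold change of 0.26 ± 0.09 (SE), with a 95% interval of 0.05 to 0.48, 19.9% on the linear scale, with a limma adjusted p of 0.164. The other Nqo1 probe, ILMN_2766386, was at background on every array (detection p 0.306 to 0.862), as was Txnrd1 probe ILMN_2484465 (0.135 to 0.871). Txnrd1, cytosolic thioredoxin reductase, therefore gave no value.

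Hmox1 is the inducible haem oxygenase and the member with the widest scatter. At ILMN_2788073 the log2 signal was 7.15, 6.61 and 6.56 in hSRY-OFF and 6.0007, 7.22 and 6.48 in hSRY-ON brains. The lowest and the highest of the 6 brains were both hSRY-ON. The log2 fold change was -0.20 ± 0.31 (SE), with a 95% interval of -0.93 to 0.53 and a limma adjusted p of 0.753, an interval that includes changes in either direction, and it turned to 0.08 without hSRY-ON replicate 1. Its deposited intensities were 217 to 317, not far above the background level, and detection p reached 0.00752.

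Gpx1, cytosolic glutathione peroxidase, and Cat, the peroxisomal catalase, remove hydrogen peroxide. Gpx1 probe ILMN_1241367 read 13.25, 13.14 and 13.28 in hSRY-OFF and 13.32, 13.31 and 13.18 in hSRY-ON brains, with overlap between the groups. Its log2 fold change was 0.05 ± 0.08 (SE), with a 95% interval of -0.15 to 0.25 and a limma adjusted p of 0.787. Cat probe ILMN_2826110 read 7.84, 7.71 and 8.10 in hSRY-OFF and 7.88, 7.55 and 8.20 in hSRY-ON brains. The range of Cat in hSRY-ON brains enclosed that in hSRY-OFF brains, and its log2 fold change was -0.01 ± 0.18 (SE), with a 95% interval of -0.43 to 0.41 and a limma adjusted p of 0.988.

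**Figure D2:**
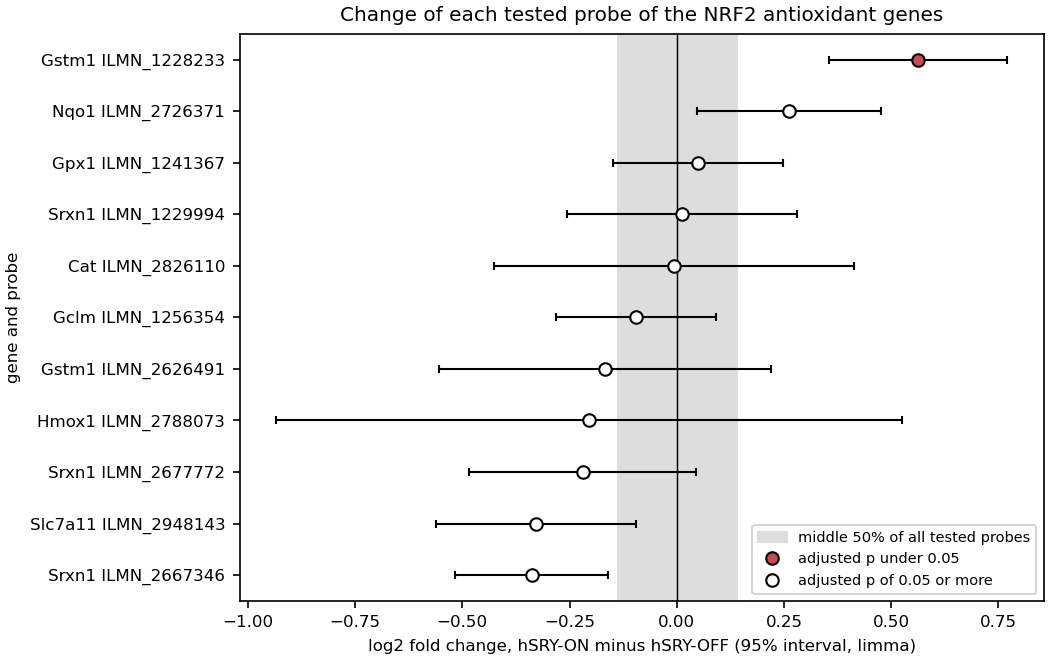
Log2 fold change (hSRY-ON minus hSRY-OFF, horizontal axis) of each tested member probe with its 95% interval from limma, with the called probe filled and the middle 50% of all tested probes in grey (-0.14 to 0.14). Gstm1 ILMN_1228233 stands at 0.56 at the top, and Srxn1 ILMN_2667346 at -0.34 and Slc7a11 at -0.33 at the bottom, with Hmox1 the widest interval.

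The pattern of Gstm1 ILMN_1228233 over the 6 arrays was most like that of Med15 (Pearson r = 0.995), Bcl11a (r = 0.994) and Apoa1 (r = 0.993), and 7 probes had r over 0.99. Med15, a Mediator subunit, had a log2 fold change of 0.20 (limma adjusted p = 0.187), and Bcl11a, a zinc-finger transcription factor, 0.12 (adjusted p = 0.396). Apoa1, the main protein of high-density lipoprotein, rose by 1.08 (adjusted p = 0.0225). The 6 points behind each r fall into the same 2 groups of 3 arrays.

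The mu-class relatives of Gstm1 were compared next. Their 7 tested probes all had log2 fold changes above 0 and none was called. Of the 3 Gstm2 probes, ILMN_1251449 gave 0.44 ± 0.15 (SE, limma adjusted p = 0.159), ILMN_2862470 gave 0.42 ± 0.14 (adjusted p = 0.152) and ILMN_2624854 gave 0.24 ± 0.13 (adjusted p = 0.343). At ILMN_2862470 the log2 signal was 7.57, 7.61 and 7.70 in hSRY-OFF and 7.81, 7.9965 and 8.34 in hSRY-ON brains, highest in hSRY-ON replicate 3. Gstm5, whose promoter stretch is printed above, had 0.18 (adjusted p = 0.265), Gstm4 had 0.08, and the 2 Gstm6 probes had 0.24 and 0.04. The direction of the family rested in part on hSRY-ON replicate 3: without it 5 of the 7 probes were above 0 and 2 below, and with array quality weights, or without hSRY-ON replicate 1, 6 were above and 1 below. That array stood apart on the second principal component, at -22.2 with all others between 0.05 and 8.92.

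**Figure D3:**
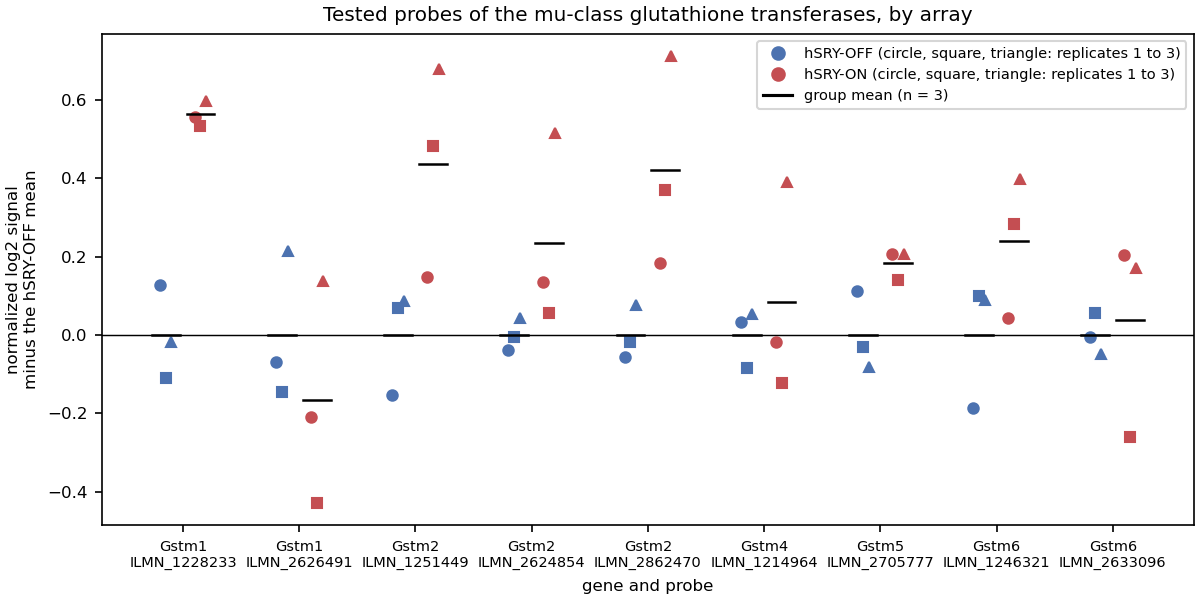
Normalized log2 signal minus the hSRY-OFF mean (vertical axis) on each array for the 9 tested probes of Gstm1, Gstm2, Gstm4, Gstm5 and Gstm6, with hSRY-OFF in blue, hSRY-ON in red, a marker shape per replicate and bars at the group means (n = 3). The 3 hSRY-ON points of Gstm1 ILMN_1228233 lie close together above the hSRY-OFF points, while hSRY-ON replicate 3 (triangle) is the highest point of the Gstm2 probes.

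The genes that control NRF2 were measured by 19 tested probes, 14 above 0 and 5 below, and none was called. Nfe2l2 itself was near the detection limit: probe ILMN_1224128 had detection p-values of 0.0627, 0.0313 and 0.113 in hSRY-OFF and 0.0426, 0.0175 and 0.0439 in hSRY-ON brains. Its log2 signal was 5.34, 5.62 and 5.20 in hSRY-OFF and 5.53, 5.80 and 5.49 in hSRY-ON brains, which overlapped, for a log2 fold change of 0.22 ± 0.14 (SE, limma adjusted p = 0.41). The other Nfe2l2 probe, ILMN_1214369, was at background on every array (detection p 0.256 to 0.657) and was not tested. NRF2 is controlled chiefly through its protein, which these arrays do not measure. The 4 Keap1 probes had log2 fold changes of 0.06 to 0.18 (adjusted p 0.289 to 0.81). The lowest p-values of the list were those of Bach2, a repressor related to BACH1, at 0.36 ± 0.10 (adjusted p = 0.105), and Nfe2l1, a relative of NRF2, at -0.26 ± 0.08 (adjusted p = 0.117).

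Among enzymes of glutathione synthesis and recycling none of 21 probes was called and the median was -0.04. Cbs, which starts the route from homocysteine to cysteine, had 0.46 ± 0.10 (adjusted p = 0.0595) at ILMN_2701582 and 0.30 (adjusted p = 0.239) at ILMN_1230318. Slc1a1, a carrier of glutamate and cysteine, had 0.47 (adjusted p = 0.136) at one probe and -0.04 (adjusted p = 0.86) at another. Among all glutathione transferases outside the members, none of 20 probes was called, 13 were above 0 and 7 below. Among the enzymes that supply NADPH none of 12 was called, and the lowest p-values belonged to Taldo1 (-0.28, adjusted p = 0.164) and Nadk (-0.22, adjusted p = 0.238).

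Peroxidases, dismutases and thioredoxins held 3 of the 5 calls among the 144 tested probes of related genes, out of 32 probes. Txnip, which binds and inhibits thioredoxin and is known to respond to glucose, rose in hSRY-ON brain, from log2 signals of 9.58, 9.81 and 9.89 to 10.60, 10.9968 and 10.94. Its log2 fold change was 1.09 ± 0.14 (SE, limma adjusted p = 0.0263). Gpx8, a peroxidase of the endoplasmic reticulum, fell at 2 of 3 probes. At ILMN_2625854, listed under its older name 2310016C16Rik, the log2 signal was 10.09 in each of the 3 hSRY-OFF brains and 9.33, 9.51 and 9.43 in hSRY-ON brains, a change of -0.67 ± 0.08 (adjusted p = 0.0263). ILMN_2625855 gave -0.65 ± 0.10 (adjusted p = 0.0321) and the third probe, ILMN_2653166, gave -0.14 (adjusted p = 0.631).

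In the haem and iron list 1 of 18 probes was called. Slc48a1, a haem transporter listed as 4930570C03Rik, read 9.87, 9.90 and 9.998 in hSRY-OFF and 10.68, 10.62 and 10.53 in hSRY-ON brains. It rose by 0.69 ± 0.08 (SE, limma adjusted p = 0.0263). Slc40a1, the iron exporter ferroportin, was lower in all hSRY-ON brains with -0.76 ± 0.15 (adjusted p = 0.0532). Of 22 probes for conjugation and export 1 was called: Cbr3, a carbonyl reductase, fell by 0.41 ± 0.08 (adjusted p = 0.0479) at ILMN_2896768, while its other probe, ILMN_2608811, gave -0.12 (adjusted p = 0.619) with overlapping groups. All 3 tested probes of Nqo2, a quinone reductase related to Nqo1, were below 0, at -0.56, -0.42 and -0.42 (adjusted p 0.0662, 0.0715 and 0.202), whereas the tested Nqo1 probe was above 0. Under some other processings, such as no background correction or array quality weights, 2 of the 3 Nqo2 probes were called. With median scaling or the replicate number as a block 0 were. In all, 3.47% of the related probes were called (2 higher and 3 lower) beside 2.17% of all tested probes. Those 5 calls kept their direction under each of 16 other processings and were called in 7 (Cbr3) or 10 (the other 4 probes) of them.

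**Figure D4:**
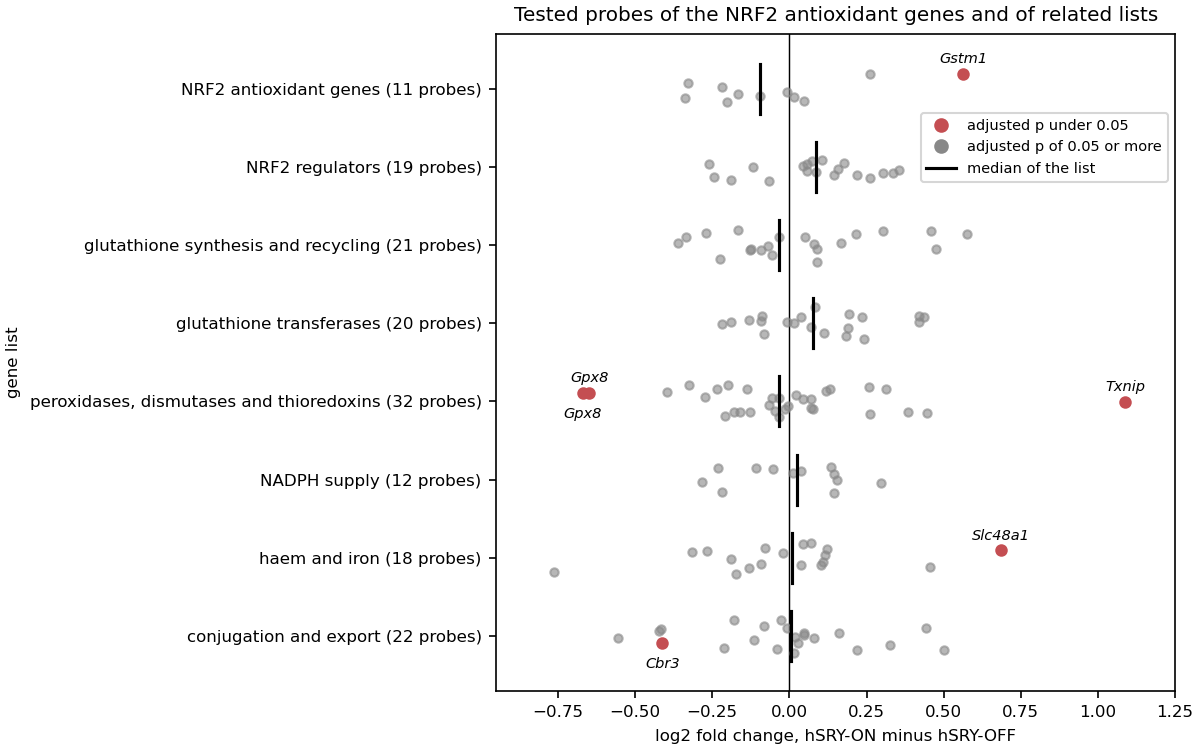
Log2 fold change (hSRY-ON minus hSRY-OFF, horizontal axis) of each tested probe, by gene list, with called probes in red and named and the median of each list as a bar. The medians of the 8 lists lie between -0.10 and 0.09, and the called probes are those of Gstm1 (0.56), Txnip (1.09), Gpx8 (-0.67 and -0.65), Slc48a1 (0.69) and Cbr3 (-0.41).

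Whole brain is a mixture, and in such RNA fewer cells of a type and less RNA per cell cannot be told apart. Markers of several cell types moved with the groups. The 7 tested oligodendrocyte markers were all lower in hSRY-ON brain, with a median of -0.47. Of them 1 was called (Mobp, -1.36), a count that ran from 0 to 5 under the other processings. Their summed linear signal was 30881 to 39033 in hSRY-OFF and 23649 to 24394 in hSRY-ON brains. Of 5 markers of their precursors 1 was called lower (Gpr17, -0.73), 4 were below 0 and Pdgfra was at 0.19, with summed signals of 11741 to 12300 and 9618 to 10028. The 4 markers of proliferating cells were all called lower (median -0.98), with summed signals of 2344 to 2715 and 1052 to 1636. They stayed below 0 under every processing, but 1 was called with no filter on dim probes and 0 with the replicate number as a block. Without hSRY-ON replicate 3 all 4 were called, and without any other array 0. Of 9 astrocyte markers 2 were called lower (Aqp4, -0.81, and Gfap, -0.83). The list went both ways, with 6 below 0 and 3 above (Gjb6 0.46, Fgfr3 0.09 and Slc1a3 0.03), while the summed signal of the list overlapped between the groups, at 39075 to 39349 and 35381 to 40685, and S100b was not detected. The summed signal of microglia and macrophage markers was 4057 to 4381 in hSRY-OFF and 4609 to 5105 in hSRY-ON brains, with none of 10 called. Its members went both ways (6 above 0 and 4 below, median 0.09), with C1qa, C1qb and C1qc at 0.38, 0.38 and 0.45 and Cd68 at -0.43. The summed signal of choroid plexus markers was 15137 to 18140 and 18513 to 23114, with none of 6 called, 5 above 0 and Kcne2 at -0.46. Neuronal markers overlapped (53330 to 55801 and 53362 to 56143, 1 above 0 and 4 below, with the Snap25 and Nefl probes not detected), as did erythroid ones (32677 to 37158 and 29245 to 36540, 1 above 0 and 3 below). Endothelial markers also overlapped (7176 to 7582 and 7393 to 8463), with 1 of 7 called higher (Vwf, 1.75), 4 above 0 and 3 below (Tek -0.53, Cldn5 -0.42 and Cdh5 -0.35). None of 5 meningeal markers and not the single ependymal one (Foxj1) was called, with overlapping sums (9977 to 10792 and 9845 to 12120, and 76 to 78 and 51 to 95). The meningeal list went both ways, with Lum at -1.09 and Col1a1 at -0.69 (adjusted p 0.0682 and 0.102) and Ptgds at 0.35 and Slc6a13 at 0.25. Granulocyte markers were sparse, with 3 of 6 tested, all above 0 and none called (Lcn2 1.66, S100a8 1.10 and Camp 0.20), and summed signals of 268 to 355 and 342 to 1706. The part of these shifts in the changes of Gstm1, Txnip, Gpx8, Slc48a1 or Cbr3 was not tested. Between 13816 and 14377 probes were detected per array, with an exact two-sided permutation p of 0.7 between the groups.

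**Figure D5:**
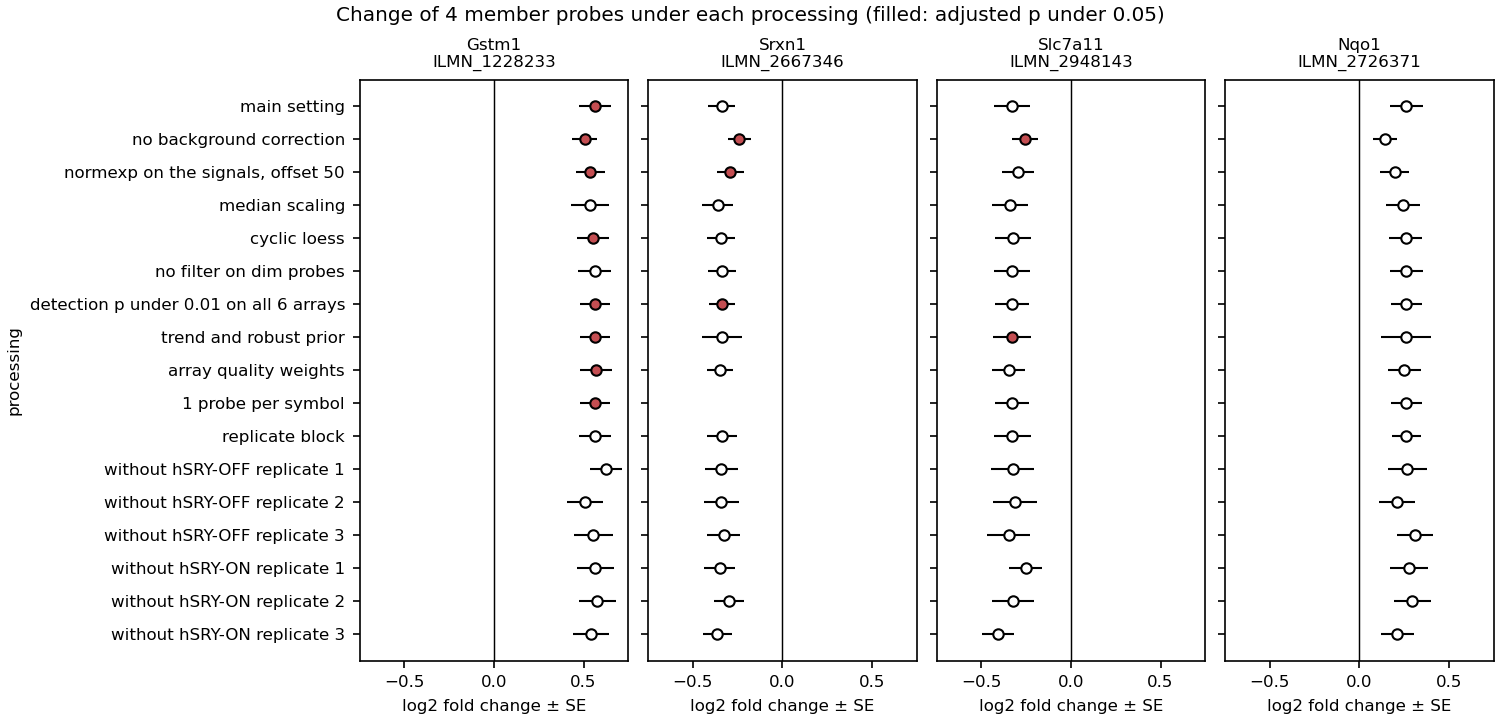
Log2 fold change ± SE (horizontal axis) of 4 member probes under the reported processing and each alternative (rows), filled where the adjusted p was under 0.05. Gstm1 ILMN_1228233 stays between 0.51 and 0.63 but loses its call whenever an array is left out, and Srxn1 ILMN_2667346 and Slc7a11 ILMN_2948143 stay below 0 in every row that has a value for them. In the rows with an array left out, calls over all probes also fell to at most 1, except without hSRY-ON replicate 3.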

How the data were processed

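Total RNA from whole brains was labelled with biotin and hybridized to 6 arrays, 3 per group, and the study describes 3 male mice per group. The authors deposited non-normalized probe intensities with a detection p-value for each array. Whether the scanner software had subtracted background is not given in the sources used here. The study's methods name the package TCC without settings, and the submitters' processing notes name limma. Here intensities were corrected with limma 3.58.1 (R 4.3.3) by normexp with negative controls inferred from the detection p-values (offset 16), quantile-normalized and taken to log2. A probe was tested when its detection p was under 0.05 on at least 3 arrays. Groups were compared by two-sided tests from lmFit and eBayes, and p-values were adjusted by Benjamini and Hochberg's method over the 14215 tested probes. The script was tested on simulated data in which only bright probes were changed, each by more than any member changed here. That check does not cover smaller changes or dim probes. The number of arrays limits the precision. Symbols were updated through RefSeq (GRCm38.p6, 14307 current, 2927 matched as synonyms).

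The members, the related lists and the cell type markers were chosen with earlier results of these data known. Named were every member probe, every called related probe, the 2 related probes of lowest p in each list and the 3 probes most like the called member. The further Gstm, Nqo2, Gpx8, Cbr3, Keap1 and Nfe2l2 probes and the second probes of Cbs and Slc1a1 were added to show whole families or regulators after their values were seen. Background correction, normalization, filters, prior, array weights, probes per symbol, the replicate number and single arrays were varied.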

Additional observations from a re-analysis of the deposited data

How the results depend on the processing

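The number of called member probes, 1, became 3 without background correction, 2 with normexp on the signals alone and an offset of 50, 2 with detection p under 0.01 on all 6 arrays, 2 with a trended and robust prior, 0 with median scaling and 0 with no filter on dim probes. It stayed 1 with cyclic loess, array quality weights and 1 probe per symbol. The added calls were Srxn1 ILMN_2667346 (adjusted p = 0.0289, 0.0461 and 0.0379 without correction, with the offset of 50 and with the stricter filter) and Slc7a11 (0.0377 without correction and 0.048 with the trended prior). In the same settings the 308 calls over all probes became 1317, 860, 705, 1447 and, with no filter, 123, and array quality weights gave 480. The 5 related calls became 17 without correction, 12 with the offset of 50, 12 with the stricter filter, 19 with the trended prior, 10 with array weights and 9 with 1 probe per symbol. The share of higher calls fell with median scaling, to 109 of 332 calls. Leaving out single arrays gave 0 member calls each time, 0 to 417 calls over all probes and 0 to 9 among related probes. The 417 and the 9 came without hSRY-ON replicate 3, and leaving out any of the other 5 arrays gave at most 1 call over all probes. Member probes with separate groups numbered 5 to 8 when an array was left out, with 8 without hSRY-ON replicate 3. Fewer arrays separate more often, and the share of all tested probes with separate groups was then 35.3% to 38.5%, and 42.5% without hSRY-ON replicate 3, against 27.7% with all arrays. The members' median stayed below 0, from -0.163 to -0.0101.

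With the replicate number as a block, 0 member probes, 0 related probes and 0 of all probes were called, and Gstm1 ILMN_1228233 had an adjusted p of 0.105. Whether same-numbered arrays shared more than a number is not given in the sources used here. Their deviations from the group means correlated at 0.0404, 0.0294 and 0.0251. Each array correlated best with its own number, a weak hint from the data and not the design. Deviations cancel within a group, so these correlations are not independent. Signs turned for Hmox1 (-0.53 to 0.0794 over the left-out arrays), for Cat (-0.17 to 0.16) and for Srxn1 ILMN_1229994 (-0.088 to 0.12, and -0.0031 with array weights), and the cause was not tested. The other 8 member probes kept their sign in every alternative. Over the left-out arrays Gclm moved between -0.13 and -0.05 and Gpx1 between 0.0049 and 0.10. Dim probes limit the rest: at background no level could be read for Gclc and Txnrd1.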
